A study of Homo sapiens with 4 samples.

Results

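The genes described here were those whose symbol in the deposited transcript table was ZSCAN, ZKSCAN or ZFP followed by a number, with 1 further letter allowed for ZSCAN. The rule used the symbol alone and no measured value. It found 39 genes with 164 transcripts, of 20298 genes with 75165 transcripts in the table. Of these, 16 genes with 81 transcripts were ZSCAN, 7 genes with 27 transcripts were ZKSCAN, and 16 genes with 56 transcripts were ZFP. RefSeq names 46 human genes that the rule would take, and the other 7 (ZSCAN1, ZSCAN4, ZSCAN5B, ZSCAN5C, ZSCAN10, ZFP42 and ZFP57) were not analysed here because the table held no row for them.

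The table came from RNA immunoprecipitation sequencing (RIP-seq) of MDA-MB-231, a human triple-negative breast cancer cell line, made to find transcripts bound by YTHDC1, the nuclear reader of N6-methyladenosine in RNA. There were 2 anti-Flag immunoprecipitation (IP) libraries and 2 input libraries. All cells, including those of the input, carried lentiviral 3x flag-YTHDC1 delivered at a multiplicity of infection of 4, were selected with 2 µg/ml puromycin for 4 days and were crosslinked by 3 UV exposures of 120000 µJ/cm2. The IP took 500 µg of nuclear lysate protein with 5 µg of anti-Flag antibody, and the input took 50 µg, or 10%. YTHDC1 was overexpressed, so the libraries are a model of the tagged protein at raised level, and cells without the transgene were not among the 4 libraries.

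Each transcript had 1 usable value, the authors' mean normalized count over all 4 libraries. That value is a mean of IP and input together and therefore says nothing of binding. Both IP and input were taken from nuclear lysate, so the totals and shares below describe nuclear RNA and not that of whole cells. It was deposited with no value per library, so it has no SD and no n, the depth of the libraries is unknown, and no difference below was tested. Transcripts were summed to a gene total. The counts are not divided by transcript length, so an order of genes is an order of reads and not of RNA molecules. The values were made from bulk samples, in which fewer cells with a transcript and less of it per cell cannot be told apart.

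Most zinc finger proteins of these names are transcription factors of the C2H2 type, in which repeated fingers, each folded around a zinc ion, read a stretch of DNA. The SCAN domain, which gives ZSCAN and ZKSCAN genes their names, lets such proteins pair with themselves or with each other. The K in ZKSCAN stands for a KRAB domain. Many KRAB domains, but not all, recruit TRIM28 (KAP1) and through it the histone methyltransferase SETDB1 and HP1 proteins to silence chromatin. Whether those of the ZKSCAN proteins do so was not examined here, nor which ZFP proteins carry a KRAB domain. ZFP is only a symbol prefix and not a domain. ZFP36 is the plain exception in the set, since it encodes tristetraprolin, a CCCH finger protein that binds AU-rich elements in mRNA and promotes its decay.

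The identity of the line was checked on marker genes. All 8 mesenchymal or MDA-MB-231 marker genes examined (VIM, CD44, AXL, CAV1, MSN, ANXA1, S100A4 and KRT18) were listed, at gene totals between 5618 and 80785. Of 6 luminal, epithelial or basal genes that this line is known to express little of, ESR1, PGR and KRT5 had no row, CDH1 stood at 10.0 and EPCAM at 78.3, while GATA3 stood at 584, near the median of coding genes. YTHDC1 itself, the overexpressed gene, had a gene total of 55488, higher than 99.8% of the protein-coding genes listed.

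Most of the 39 genes had gene totals in the middle of the range of protein-coding genes. Their median gene total was 647, beside 588 for the 14050 protein-coding genes listed. Members had a median percentile of 52.2 among those genes, and 22 of 39 lay above the 50th. In all, 35 of 39 members (89.7%) reached a gene total of 100, beside 78.6% of protein-coding genes and 90.6% of the 458 protein-coding ZNF genes. Only 10 of 39 (25.6%) reached 1000, beside 37.8% of protein-coding genes and 28.2% of ZNF genes. The members therefore held fewer very low and fewer high totals than protein-coding genes at large, in proportions near those of the ZNF genes, and the highest lay at the 88.6th percentile of coding genes.

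The 3 groups were ordered by their medians with wide overlap. The median gene total was 973 for ZKSCAN (quartiles 688 and 2160), 768 for ZSCAN (358 and 1151) and 490 for ZFP (126 and 652). For comparison, the median was 491 for ZNF genes and 868 for the 40 ZBTB genes, another class of finger proteins, which carry a BTB domain in place of SCAN or KRAB. Every group spanned more than 10 times its lowest member, with a ratio of highest to lowest of 19.2 for ZKSCAN and 73.7 for ZFP and ZSCAN between them. The 3 highest genes took 76.2% of the summed mean of ZKSCAN, 50.2% of ZFP and 43.7% of ZSCAN.

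**Figure D1:**
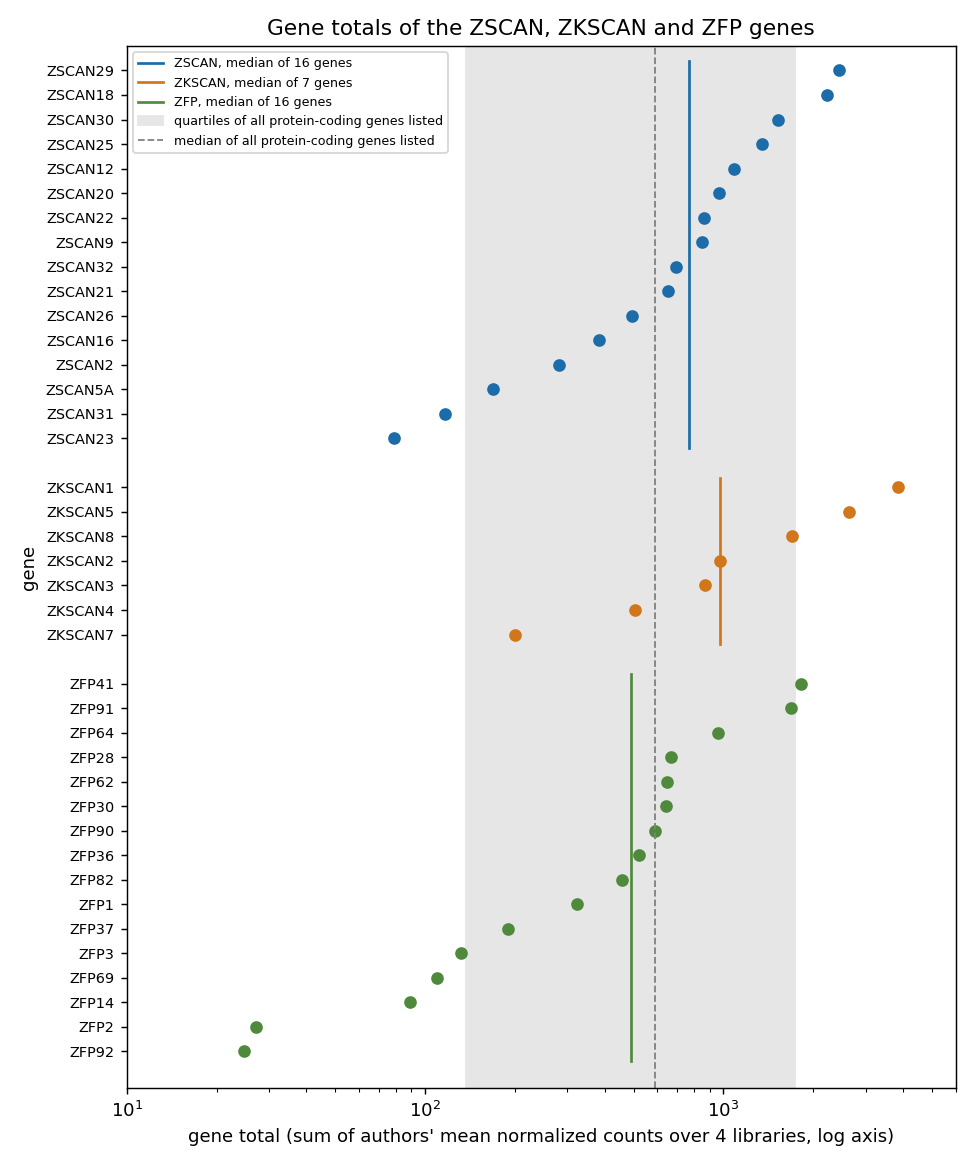
Gene total of each member (points; sum of the authors' mean normalized counts over its transcripts, log axis), with a vertical line at each group's median, a dashed line at the median of all protein-coding genes listed and a grey band between their quartiles. The 3 groups overlap, with medians of 768, 973 and 490, and ZFP2 and ZFP92 stand lowest at 27.2 and 24.7.

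ZKSCAN1 led all 39 genes with a gene total of 3854, the 88.6th percentile of protein-coding genes. It is the gene whose exons also give a well-known circular RNA, which the linear transcript table does not separate. ZKSCAN5 followed at 2627 and ZKSCAN8 at 1693. ZKSCAN2 stood at 973, and ZKSCAN3, described as a repressor of autophagy and lysosome genes, at 869. ZKSCAN4 at 507 and ZKSCAN7 at 201 were the lowest of the group. All 7 ZKSCAN genes thus reached 200, and 5 of 7 lay above the median of protein-coding genes.

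ZSCAN29 was the highest ZSCAN gene at 2447, followed by ZSCAN18 at 2220, ZSCAN30 at 1519, ZSCAN25 at 1347 and ZSCAN12 at 1085. ZSCAN29, like ZSCAN20 (968) and ZKSCAN2, carries a Myb/SANT-like domain beside its SCAN domain and fingers. ZSCAN18 is a gene known to be silenced by promoter methylation in several tumour types, and here it had the second highest total of its group. The lowest were ZSCAN5A at 169, ZSCAN31 at 117 and ZSCAN23 at 78.9, which was the only ZSCAN gene below 100. ZSCAN22 (859) and ZSCAN9 (845) stood side by side, and with no replicate error their order cannot be read.

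ZFP41 and ZFP91 led the ZFP group at 1821 and 1688. ZFP91 is a ubiquitin ligase of the noncanonical NF-kappaB pathway as well as a finger protein. Its span overlaps the entry ZFP91-CNTF, and how reads were divided between them was not examined. ZFP64, at 960, is a transcription factor that maintains expression of the KMT2A (MLL) gene in leukaemia. ZFP28 (668), ZFP62 (647), ZFP30 (644) and ZFP90 (592) formed a close run around the median of protein-coding genes. ZFP14 at 89.2, ZFP2 at 27.2 and ZFP92 at 24.7 were the lowest of all 3 groups except for ZSCAN23, which lay between ZFP14 and ZFP2. ZFP92 lies on the X chromosome and overlaps PNMA6E on the opposite strand. The libraries were made with a stranded kit, but whether the counting used strand is not given in the sources used here.

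ZFP36 had a gene total of 522, the 47.4th percentile of protein-coding genes, so the one member with a different kind of finger was not an outlying value. Its paralogs outside the rule were higher, with ZFP36L1 at 5176 and ZFP36L2 at 1467. Of its total, 87.0% came from 3 protein-coding transcripts, led by ZFP36-203 at 320, and 13.0% from the processed transcript ZFP36-204 at 67.9. Without ZFP36 the median of the ZFP group was 457.

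Related genes outside the symbol rule were present as well. Of 27 further genes that encode a SCAN domain under other names, 25 were listed, at gene totals from 33.9 (ZNF396) to 3220 (ZNF496) with a median of 777, close to the 768 of ZSCAN. PEG3 and ZNF483 had no row. All 7 genes of the KRAB silencing machinery examined were listed, from CBX3 (HP1 gamma) at 1044 to TRIM28 at 25719, with a median of 2214. SETDB1 stood at 2134. TRIM28, through which many KRAB domains act, thus had more reads than any of the 39 finger genes.

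Protein-coding transcripts held 95.0% of the summed mean of ZFP, 84.1% of ZSCAN and 82.1% of ZKSCAN, beside 87.6% over all protein-coding genes and 89.5% over ZNF genes. The remainder of the SCAN-domain genes lay mainly in transcripts annotated to nonsense-mediated decay (NMD), the pathway that destroys mRNAs with a premature stop codon. NMD transcripts held 16.6% of the summed mean of ZKSCAN, 11.7% of ZSCAN and 1.17% of ZFP, beside 4.22% over all protein-coding genes, 4.25% over ZNF and 0.623% over ZBTB genes. The type is an annotation and the RNA was nuclear, so decay was not measured. These shares rest on few genes. NMD transcripts were listed for 4 of 7 ZKSCAN, 5 of 16 ZSCAN and 1 of 16 ZFP genes. That made 10 of 39 members, beside 4227 of 14050 protein-coding genes and 111 of 458 ZNF genes. Having a listed NMD transcript was therefore not particular to the members. Without ZSCAN29 the ZSCAN share was 5.70%, without ZKSCAN8 the ZKSCAN share was 12.2%, and the ZFP share came from ZFP28 alone.

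ZSCAN29-206, an NMD transcript, had a mean of 989, 40.4% of its gene, and was the highest ZSCAN29 transcript. The 4 protein-coding transcripts of ZSCAN29 had means of 510, 432, 298 and 143, so together they still exceeded it. The next largest NMD transcripts were ZKSCAN8-204 at 649 (38.3% of its gene), ZSCAN25-203 at 514 (38.2%), ZKSCAN2-203 at 512 (52.6%) and ZKSCAN5-204 at 497 (18.9%). In ZKSCAN8, ZSCAN25 and ZKSCAN5 a protein-coding transcript was higher, at 796, 571 and 1442. In ZKSCAN2 the only protein-coding transcript, ZKSCAN2-201, had a mean of 368, below the NMD transcript. RSEM divides reads shared by isoforms by a statistical estimate, so single transcript values are less certain than gene totals.

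The most abundant transcript was not protein-coding in 5 of 39 members (12.8%), close to the 12.9% of all protein-coding genes, and in 5.90% of ZNF genes. It was an NMD transcript in ZSCAN29, ZSCAN23, ZKSCAN2 and ZKSCAN7, that is in 10.3% of members beside 6.19% of protein-coding genes. In ZSCAN31 it was the processed transcript ZSCAN31-218 at 61.5, 52.6% of the gene, while 5 protein-coding transcripts each had means between 6.37 and 16.3. ZSCAN23 held the least protein-coding signal, with 7.57 of its 78.9 (9.60%) in ZSCAN23-201, beside 43.5 in the NMD transcript ZSCAN23-202 and 27.8 in a processed transcript. ZKSCAN7-203, the NMD transcript of ZKSCAN7, had a mean of 89.3 (44.5%), above the highest protein-coding one at 55.3. None of the 16 ZFP genes was led by a noncoding type. Retained-intron transcripts held 2.49% of ZSCAN, 1.25% of ZKSCAN and 0.569% of ZFP, each below the 4.16% of all protein-coding genes. The share was also below that in ZNF genes, at 3.02%, and in ZBTB genes, at 0.536%, so a low share was not particular to the members. Within the ZSCAN group ZSCAN18 carried most of them, at 108 and 95.6 for its largest pair.

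**Figure D2:**
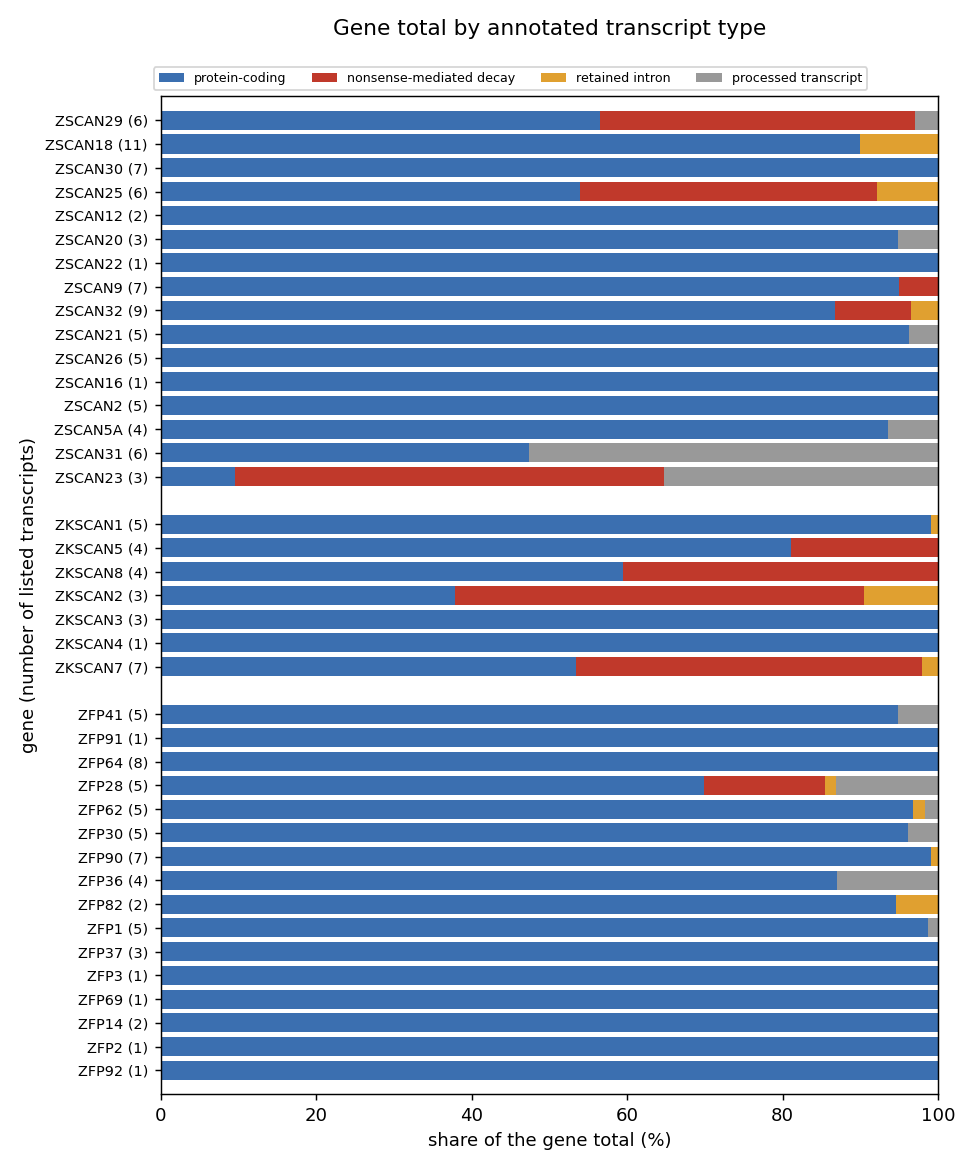
Share of each member's gene total by annotated transcript type (stacked bars, percent; the number of listed transcripts is in brackets). Red blocks mark transcripts annotated to nonsense-mediated decay, which take 55.1% of ZSCAN23, 52.6% of ZKSCAN2, 40.5% of ZKSCAN8 and 40.4% of ZSCAN29 and are present in 1 ZFP gene, ZFP28.

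The reads of most members were spread over several isoforms. Members had a median of 4 listed transcripts, as protein-coding genes did, and 8 of 39 (20.5%) had 1, beside 18.3% of protein-coding genes. Those with 1 were ZSCAN16, ZSCAN22, ZKSCAN4, ZFP2, ZFP3, ZFP69, ZFP91 and ZFP92. Among the 31 with several, the most abundant transcript held a median of 58.9% of the gene total, beside 59.7% for protein-coding genes with several. In 11 of 31 (35.5%) it held below 50%, near the 32.7% of protein-coding genes and 32.4% of ZNF genes with several. By group the median was 68.3% for ZFP, 53.9% for ZSCAN and 50.2% for ZKSCAN. ZSCAN18 was the most divided, with 11 transcripts of which the highest, ZSCAN18-203 at 620, held 27.9%. ZSCAN12 was at the other end, with 98.8% in ZSCAN12-202. ZKSCAN1 was split between ZKSCAN1-201 at 1846 (47.9%) and ZKSCAN1-202 at 1295 (33.6%), both protein-coding. ZFP41 was split likewise, with 844 in ZFP41-203 and 708 in ZFP41-201.

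**Figure D3:**
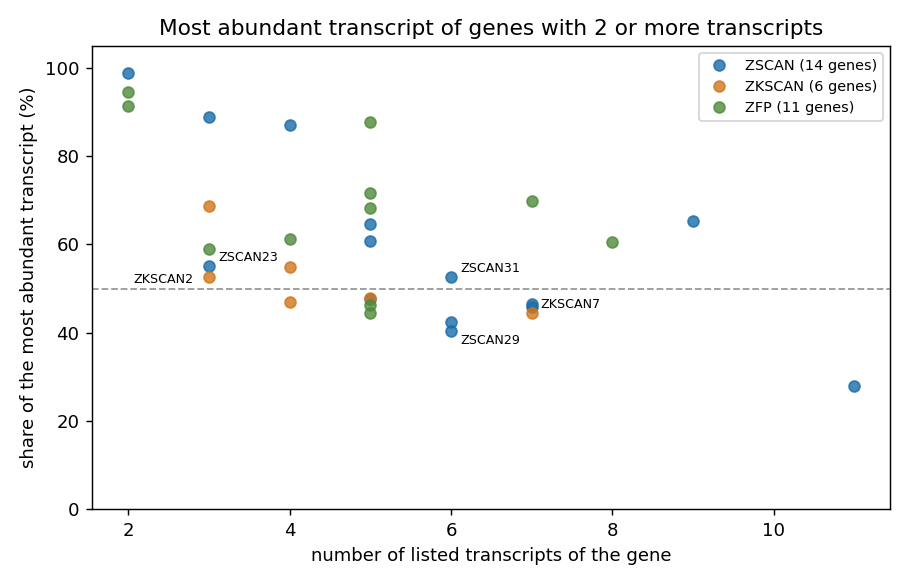
Share of the gene total held by the most abundant transcript (percent) against the number of listed transcripts, for the 31 members with more than 1; colours mark the groups and the dashed line is at 50%. The 5 named genes are those led by a transcript that is not protein-coding, and ZSCAN18 lies lowest at 27.9% with 11 transcripts.

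The members lay on 15 chromosomes (RefSeq, GRCh38.p14), with 9 on chromosome 6, 8 on chromosome 19 and 4 each on chromosomes 7 and 16. The 9 on chromosome 6 were 6 ZSCAN and 3 ZKSCAN genes within 319 kb, at chr6:28124609-28443491, in the order ZSCAN16, ZKSCAN8, ZSCAN9, ZKSCAN4, ZSCAN26, ZSCAN31, ZKSCAN3, ZSCAN12 and ZSCAN23. Gene totals there ran from 78.9 to 1693, a 21.5-fold range, with a median of 507, beside 971 for the other 14 ZSCAN and ZKSCAN genes. The adjacent ZKSCAN4 and ZSCAN26 stood close, at 507 and 496. ZSCAN31 at 117 and ZKSCAN3 at 869 overlap on opposite strands, so reads from the shared stretch can be told apart only if the counting used the strand that the kit preserved. On chromosome 7, ZKSCAN5 (2627) lies near ZSCAN25 (1347) and ZKSCAN1 (3854) near ZSCAN21 (654). ZSCAN21 overlaps ZNF3, ZSCAN30 overlaps ZNF397, and the span of ZSCAN25 takes in CYP3A5 and CYP3A7, each on the opposite strand.

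**Figure D4:**
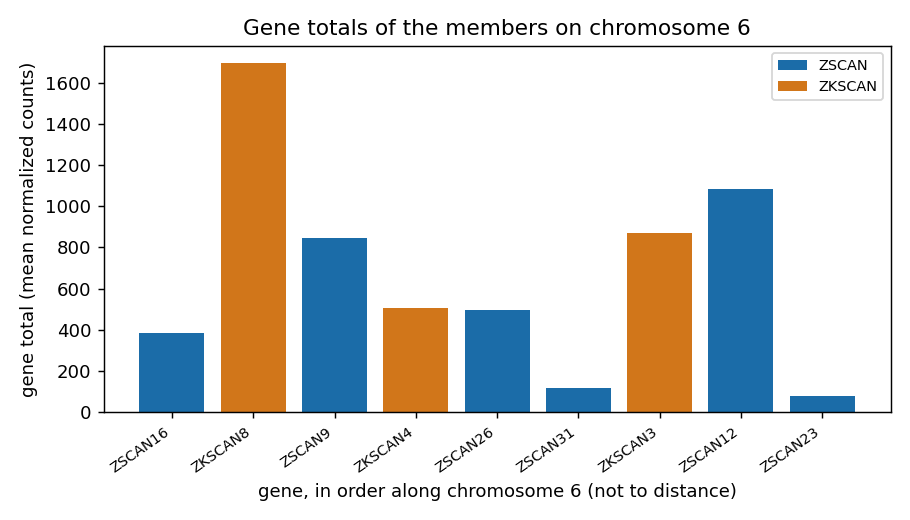
Gene totals (bars from 0, sums of mean normalized counts) of the 9 members in the 319 kb stretch of chromosome 6, placed in their order along it and not by distance; colours mark ZSCAN and ZKSCAN. The totals range from 78.9 for ZSCAN23 to 1693 for ZKSCAN8.

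The promoters of the members were examined for what they shared that the symbol rule did not use. The RefSeq promoter table (GRCh38.p14, 250 bases before to 50 after each start that it lists) held 48 promoters for 32 of the 39 genes. Some genes had several that overlap, so promoters are not independent. In 41 of 48 (85.4%) the ratio of observed to expected CpG was at least 0.6, one of the usual marks of a CpG island, beside 48.9% of all 35116 promoters and 77.5% of the 512 ZNF promoters. None held the letters TATAAA on either strand, beside 11.5% of all promoters, 4.51% of those with that CpG ratio and 3.91% of ZNF promoters. The letters CCGGAAG, a core read by ETS-family factors, were found on either strand in 18 of 48 (37.5%) from 17 genes, beside 10.3% of all promoters. Among promoters with that CpG ratio the share was 41.5% for members and 18.0% for all, and for ZNF genes of any ratio it was 35.7%, so the members were close to ZNF genes. By group it was 45.8% for ZSCAN, 40.0% for ZKSCAN and 21.4% for ZFP. The windows listed here, shown because these letters were more frequent in members than in all promoters, hold the first match in the 2 genes of each group with the highest gene totals among those with one. Each is written 5′ to 3′ along the gene's strand, with CCGGAAG or its reverse complement CTTCCGG in capitals. In ZKSCAN8 the letters occur in both directions and overlap, so its capitals mark both matches. These are matches of letters and not measured binding sites.
ZSCAN29, chr15:43371143-43371172, minus strand: gcgggggagtcCCGGAAGttcggcagctca
ZSCAN25, chr7:99616943-99616972, plus strand: tccgcagctcaCTTCCGGaccgcggatagc
ZKSCAN1, chr7:100015531-100015560, plus strand: ctagagaggacCCGGAAGcgcggcgcggtc
ZKSCAN8, chr6:28141831-28141860, plus strand: ctcctagagagCTTCCGGAAGtgcctttgg
ZFP62, chr5:180861267-180861296, minus strand: cggcgcgggttCTTCCGGccgtgcggtccg
ZFP3, chr17:5078444-5078473, plus strand: ccgcccgggtaCCGGAAGtggccgatgccc
The match began 118 bases before the start in ZSCAN29, 54 before in ZKSCAN1, 12 before in ZFP3 and 9 before in ZFP62, and at base 9 after the start in ZSCAN25. In ZKSCAN8 it began 41 bases before the listed start, which lies downstream of the first base of the gene's span, so that match is inside the span. ZKSCAN1 held 3 matches and ZSCAN29 and ZKSCAN8 held 2 each. Gene totals of these 6 genes ran from 132 for ZFP3 to 3854 for ZKSCAN1.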

How the data were processed

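RIP-seq was measured in 2 IP and 2 input libraries, grouped by their labels and made from rRNA-depleted RNA with a stranded kit. The authors mapped reads with STAR (2.7.2b), estimated reads per transcript with RSEM (1.2.31) on GENCODE v33, dropped transcripts that did not reach 5 reads in 50% of samples or more, corrected batch effects with RUVSeq and used DESeq2. The deposited signal value is the authors' mean normalized count over all 4 libraries. The other deposited columns hold the authors' own comparison of IP and input (fold change, its error, p and adjusted p) and were not used, so no IP and input comparison was made. Transcript means were summed per gene identifier in Python (3.11.15; pandas 2.3.3, numpy 2.4.6), and the summing was tested on simulated data. All 39 gene symbols were matched to RefSeq. Promoter sequences were read along the gene's strand, and in 3026 of 3026 overlapping pairs on opposite strands they were reverse complements. Genes named were the 5 highest and 3 lowest totals of each group, ZFP36, and genes led by a transcript that is not protein-coding; others named were chosen after their values were seen. The promoter comparisons with CpG-rich and ZNF promoters and the printed windows were chosen after the data were seen. Members and lists were chosen with earlier results of these data known. Alternatives were protein-coding transcripts alone, the most abundant transcript, transcript means of at least 10, a minimum total of 200, and leaving out ZFP36 or ZSCAN29.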

Additional observations from a re-analysis of the deposited data

How the results depend on the processing

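The number of genes with a gene total of at least 100 stayed within 1.5 times its value in 14 of 14 settings. No group was large enough for its count to rise that far, so this mark was loose. At a minimum of 200 the count went from 13 to 10 for ZFP and from 15 to 13 for ZSCAN, and stayed at 7 for ZKSCAN. Medians and shares had a stricter mark, being taken as moved when they differed at 3 significant digits. By it 15 of 19 moved and 4 did not. With protein-coding transcripts alone, the median gene total was 678 for ZSCAN, 869 for ZKSCAN and 443 for ZFP. With the most abundant transcript of each gene it was 423, 597 and 366, and the protein-coding share was 86.2%, 89.6% and 100%. With transcript means of at least 10, the ZSCAN median was 760 and the ZFP share 95.2%. Without ZFP36 the ZFP median was 457 and the share 95.5%. Without ZSCAN29, a setting chosen after seeing the data, the ZSCAN median was 691 and the share 89.8%. ZKSCAN stayed above ZSCAN and ZSCAN above ZFP in the medians of each setting applied to all 3 groups. No paired analysis was possible because the table gives 1 mean over all libraries and no value per library. Leaving out a library and dividing by transcript length were not run for the same lack of values and lengths. Depth is unknown, so the precision of low totals cannot be given.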
